A study of Mus musculus with 8 samples.

Results

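The creatine kinase and phosphotransfer genes described here are 9 rows of an expression table of 13439 genes, chosen by name: Ckm, Ckmt2, Ckb, Slc6a8, Ak1, Ak3, Slc25a4, Slc25a5 and Slc25a3. All 9 were listed, and all 9 passed the filter on low values in every library. They were followed in RNA of mouse left ventricles (tissue label: heart, myocardium) from 4 groups with 2 libraries each. Control littermates with floxed Lin28a alleles (genotype Lin28afl/fl, called floxed here) and mice whose knockout is labelled as cardiac specific (genotype Lin28aCko, called cKO here) were sham-operated or had transverse aortic constriction (TAC), a band on the aorta that raises the load on the left ventricle. TAC hearts were taken 5 days after the operation. The sources used here do not name the promoter that drives the recombinase, the age and sex of the mice or the day on which sham hearts were taken. By its title, the series asks how loss of Lin28a affects overload hypertrophy; the protein binds RNA and holds back let-7 microRNAs. The genotypes are taken from the labels, since Lin28a transcripts were not analysed here.

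Heart muscle spends ATP at the myofibrils and at ion pumps and makes it in mitochondria, and phosphotransfer enzymes carry the energy-rich phosphate between these places. Mitochondrial creatine kinase uses new ATP to make phosphocreatine, and cytosolic creatine kinase turns phosphocreatine back into ATP where it is used. Creatine is taken up from the blood by a transporter, adenylate kinases exchange phosphate among ATP, ADP and AMP, and carriers of the inner mitochondrial membrane trade ADP for ATP and bring in phosphate. Loss of creatine kinase and of total creatine is a long-known feature of the failing heart.

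Values are CPM, a gene's reads scaled to a common library total, and libraries held between 10315902 and 21871570 reads assigned to genes. Tests were made by limma on log2(CPM + 1) over 13120 genes, and a gene passed at a Benjamini-Hochberg adjusted p under 0.05. Fold values on this scale are log2 differences ± standard error, and means carry the SD of 2 libraries. Nothing in the labels says that the 2 libraries of a group came from separate animals. The spread that p-values measure here may thus be technical, except in the cKO sham pair. Floxed sham 2, cKO sham 2 and cKO TAC 2 held 65 to 133 CPM of the atrial light chain gene Myl7, against at most 6.16 CPM elsewhere. Library cKO sham 2 also had 44.3 CPM of Xist, the X-inactivation RNA, and no reads of Ddx3y, which is Y-linked. Xist reached at most 0.173 CPM in each of the 7 others. Library cKO sham 1 had 63.2 CPM of Ddx3y, so the 2 cKO sham libraries were not made from the same animal. The 10 cardiomyocyte markers were listed and summed to between 61274 and 93173 CPM in every library, so the defining transcripts of the labelled tissue were present.

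The promoters of 4 genes are shown first. Ckm and Ckb, the cytosolic creatine kinases, moved in opposite directions in floxed TAC hearts, Ckmt2 is the mitochondrial partner of Ckm, and Slc25a5 is the ADP/ATP carrier that was higher. The windows are the 250 bases before the start that RefSeq annotates on build GRCm38.p6, written 5′ to 3′ on the strand of the gene, with the motifs named below in capitals. RefSeq and GENCODE, whose gene positions are given further on, place some starts differently: the Ckm window lies inside the longest GENCODE gene model, and its last 69 bases, in exons of GENCODE transcripts, are not printed. Of the Slc25a4 window 222 bases are exon in GENCODE, so it is not printed, and of the Slc25a3 window 92 are. The Slc25a5 starts differ as well, with GENCODE's the farther downstream, while those of Ckmt2 and Ckb coincide.
Ckm, chr7:19410844-19411024, plus strand: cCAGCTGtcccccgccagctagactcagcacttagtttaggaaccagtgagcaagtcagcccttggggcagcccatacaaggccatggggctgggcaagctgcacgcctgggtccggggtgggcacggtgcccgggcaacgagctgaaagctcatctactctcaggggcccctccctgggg
Ckmt2, chr13:91876886-91877135, minus strand: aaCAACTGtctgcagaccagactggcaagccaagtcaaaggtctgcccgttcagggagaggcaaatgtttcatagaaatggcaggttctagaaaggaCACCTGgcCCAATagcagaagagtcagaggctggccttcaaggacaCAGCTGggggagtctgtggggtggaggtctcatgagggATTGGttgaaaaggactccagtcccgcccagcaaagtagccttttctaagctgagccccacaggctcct
Ckb, chr12:111672339-111672588, minus strand: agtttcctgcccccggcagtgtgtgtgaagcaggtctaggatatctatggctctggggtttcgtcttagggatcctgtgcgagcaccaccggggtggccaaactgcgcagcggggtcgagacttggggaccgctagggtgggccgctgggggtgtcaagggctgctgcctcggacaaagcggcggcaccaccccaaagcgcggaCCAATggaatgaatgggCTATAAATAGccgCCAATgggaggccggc
Slc25a5, chrX:36795347-36795596, plus strand: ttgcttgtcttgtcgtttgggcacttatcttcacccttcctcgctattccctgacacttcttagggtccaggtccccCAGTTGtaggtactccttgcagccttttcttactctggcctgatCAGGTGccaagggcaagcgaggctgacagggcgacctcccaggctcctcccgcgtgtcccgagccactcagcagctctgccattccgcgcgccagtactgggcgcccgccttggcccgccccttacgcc

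Promoter windows were at hand for 8 of the 9 genes. Letters were searched on both strands for the TATA box (TATAA), the CCAAT box (CCAAT), a muscle-type E-box (CANCTG), the half-site of estrogen-related receptors (AAGGTCA), the NRF1 motif and the MEF2 motif. The muscle gene Ckm held 1 E-box and, in the part not printed, a TATA box 29 bases before the RefSeq start. Ckb held 2 CCAAT boxes and a TATA box at base -28 that lies inside a MEF2 match. Ckmt2 had 3 E-boxes and 2 CCAAT boxes and no TATA box in this window, and Slc25a4 had 2 CCAAT boxes, both in bases that GENCODE annotates as exon. Slc25a5 had 2 E-boxes, and Slc25a3, which encodes the phosphate carrier, was the only one of the 8 genes with an NRF1 match in the windows searched. Ak1 has 4 annotated windows, with E-boxes in 3 of them and the receptor half-site in 1, and the Ak3 window held none of these letters. All 250 bases of the Ak3 window lie in GENCODE exons, counted on either strand. Among all 32851 promoter windows of this length 22.8% held the TATA letters, 33.8% CCAAT, 44.8% the E-box, 4.08% the receptor half-site, 3.74% the NRF1 motif and 2.92% the MEF2 motif. The number of CG dinucleotides in the window was 6 for Ckm and 2 for Ckmt2, against 16 for Ckb, 18 for Slc25a4, 14 for Slc25a5 and 27 for Slc25a3, with a median of 6 over all windows. The gene that fell had fewer CG dinucleotides than its partner in the creatine kinase pair and more in the carrier pair. These matches describe letters in the sequence and no binding.

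In floxed hearts with TAC the creatine kinases of muscle fibre and mitochondrion, the cytosolic adenylate kinase, the heart-type ADP/ATP carrier and the phosphate carrier fell. Brain-type creatine kinase, the creatine transporter and the second ADP/ATP carrier were higher. Ckm fell by 60.7% and Ckb rose by 71.2%. In cKO hearts none of the 9 genes passed in the same comparison. Of the 9 genes 8 passed in floxed hearts, 5 lower and 3 higher, where 42.4% of all genes tested passed, 14.5% lower and 27.9% higher. The median log2 difference of the 9 was -0.69, against 0.14 over all genes. Relative to that median of all genes, Ckm stood at log2 -1.49, Ckmt2 at -0.90, Ak1 at -1.01, Slc25a4 at -0.91, Slc25a3 at -0.83, Ckb at 0.63, Slc25a5 at 0.37 and Slc6a8 at 0.29. Scaling by the median gene (RLE) brings the median of all genes to 0.00 and changes the calls over all genes from 3655 higher and 1907 lower to 2985 and 2595, and 6 of the 9 genes then passed, without Slc6a8 and Slc25a5.

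**Figure D1:**
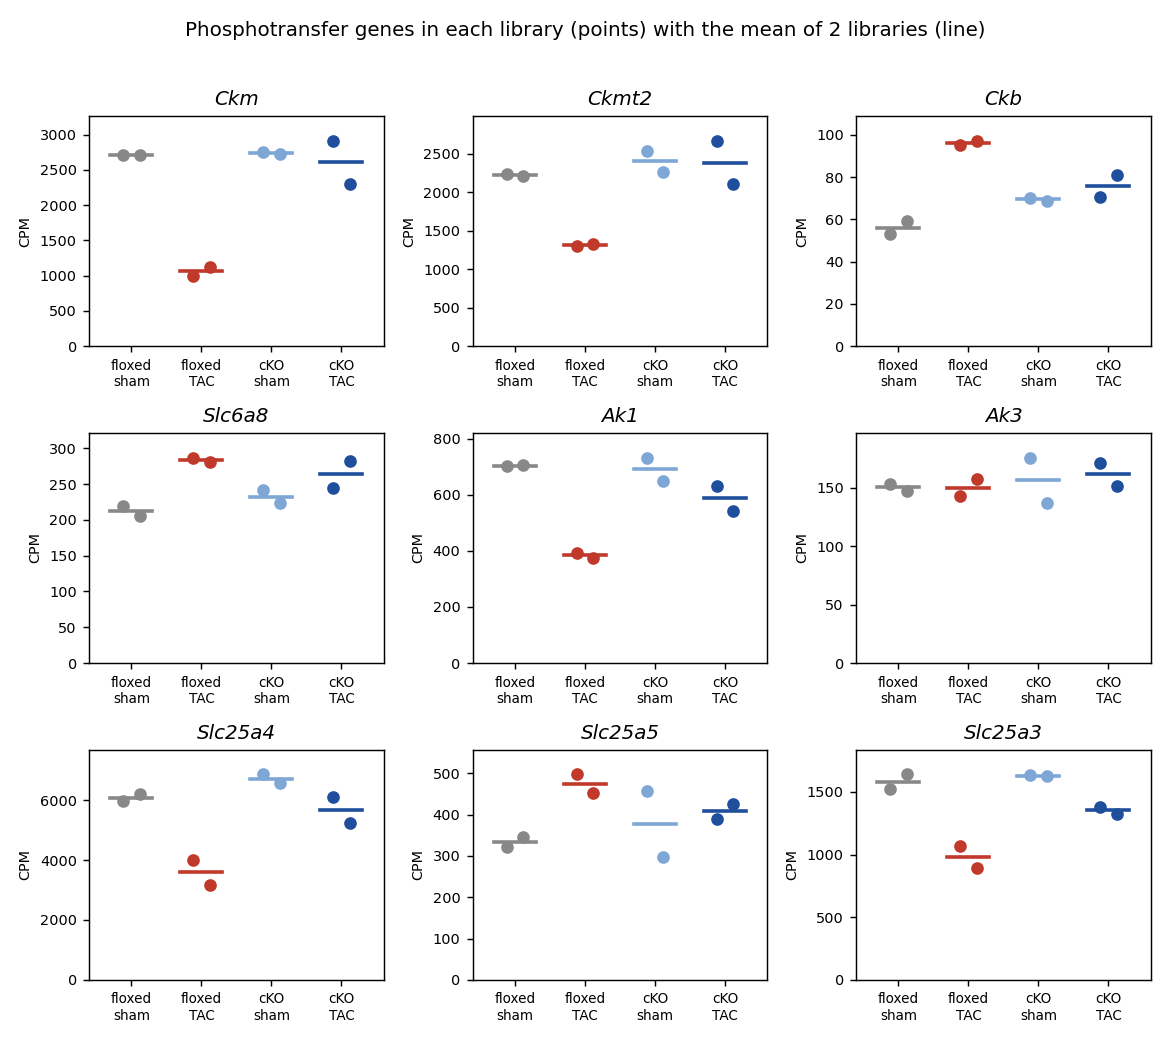
CPM of the 9 genes in each of the 8 libraries, with 1 point for each library, a short line marking each group's mean and each axis starting at 0. The floxed TAC libraries sit apart from the other 6 for Ckm (1002 and 1129 CPM), Ckmt2, Ak1, Slc25a4 and Slc25a3, all below them, and for Ckb, above them, while Ak3 overlaps throughout.

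Ckm (ENSMUSG00000030399.2, chromosome 7, 19404776 to 19422841 on mm10) encodes the muscle subunit of cytosolic creatine kinase, which regenerates ATP at the myofibrils. Its level was 2714 and 2707 CPM in floxed sham hearts and 1002 and 1129 CPM in floxed TAC hearts. In cKO hearts it was 2754 and 2724 CPM after sham and 2913 and 2307 CPM after TAC. The floxed TAC libraries were the low ones, and the cKO TAC libraries lay on either side of their sham values. The difference was log2 -1.35 ± 0.14 in floxed hearts (limma adjusted p = 0.000104) and log2 -0.08 ± 0.14 in cKO hearts (limma adjusted p = 0.841, 95% interval -0.40 to 0.24). The responses differed between genotypes, by log2 1.27 ± 0.20 for cKO minus floxed (limma adjusted p = 0.00733). An antisense gene, A930016O22Rik, lies within Ckm and covers 11.5% of its 50-base words, and whether counting used strand is not stated.

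Ckmt2 (ENSMUSG00000021622.3, chromosome 13, 91853387 to 91876885) encodes the sarcomeric mitochondrial creatine kinase, which sits in the intermembrane space next to the ADP/ATP carrier. It was at 2238 and 2217 CPM in floxed sham and 1296 and 1326 CPM in floxed TAC hearts. The cKO libraries had 2541 and 2269 CPM after sham and 2669 and 2104 CPM after TAC. As with Ckm, floxed TAC libraries stood alone at the bottom and the cKO groups overlapped. Ckmt2 differed by log2 -0.76 ± 0.14 in floxed (limma adjusted p = 0.00211) and by log2 -0.02 ± 0.14 in cKO hearts (limma adjusted p = 0.964, 95% interval -0.34 to 0.30). The difference between both responses was log2 0.75 ± 0.20 (limma adjusted p = 0.0383), and it missed the threshold in 7 of 8 fits that leave out a library (highest adjusted p = 0.140, without floxed sham 1), all but the one without cKO TAC 2.

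Ckb (ENSMUSG00000001270.9, chromosome 12, 111669361 to 111672338) encodes the brain-type subunit, the form of early heart development and of many non-muscle cells. Floxed sham libraries had 53.1 and 59.2 CPM and floxed TAC libraries 95.01 and 97.1 CPM. After sham the cKO libraries had 70.3 and 68.8 CPM, and after TAC 70.3 and 81.1 CPM. The floxed sham pair was the lowest and the floxed TAC pair the highest of the 4 groups, with both cKO groups between them. The TAC difference was log2 0.77 ± 0.12 in floxed (limma adjusted p = 0.000687) and log2 0.12 ± 0.12 in cKO hearts (limma adjusted p = 0.683). The responses differed by log2 -0.65 ± 0.16 (limma adjusted p = 0.0309), and under RLE scaling by log2 -0.53 with adjusted p = 0.0527. This call, too, was lost in 7 of 8 fits that leave out a library, all but the one without cKO TAC 2. Of the 50-base words of its coding transcript 21.9% also occur in transcripts of other genes, among them the pseudogenes Ckb-ps1 and Ckb-ps2, so part of its reads could be assigned elsewhere.

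Slc6a8 (ENSMUSG00000019558.14, chromosome X, 73673150 to 73682502) encodes the creatine transporter of the cell membrane. It rose from 219 and 205 CPM to 287 and 281 CPM in floxed hearts. The cKO libraries had 242 and 223 CPM after sham and 245 and 283 CPM after TAC. Floxed TAC libraries were above both sham groups, and the cKO TAC pair reached from just above its sham pair to the floxed TAC level. The floxed difference of log2 0.42 ± 0.11 passed (limma adjusted p = 0.0116), but under RLE scaling it was log2 0.28 with adjusted p = 0.0681. It also missed the threshold without floxed sham 2 (adjusted p = 0.0934) and without floxed TAC 1 (adjusted p = 0.0546). In cKO hearts it was log2 0.18 ± 0.11 (limma adjusted p = 0.457), and the test of the difference between both responses did not pass (limma adjusted p = 0.318, 95% interval -0.59 to 0.10).

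Ak1 (ENSMUSG00000026817.14, chromosome 2, 32621758 to 32635058), the main cytosolic adenylate kinase of striated muscle, turns pairs of ADP into ATP and AMP. It fell from 703 and 706 CPM to 394 and 375 CPM in floxed hearts. In cKO hearts the sham libraries had 733 and 651 CPM and the TAC libraries 632 and 543 CPM. Floxed TAC libraries were lowest, and the cKO TAC pair lay just below the cKO sham pair without overlap. The TAC difference was log2 -0.87 ± 0.12 in floxed (limma adjusted p = 0.000322) and log2 -0.24 ± 0.12 in cKO hearts (limma adjusted p = 0.351). For Ak1 the responses differed by log2 0.64 ± 0.16 (limma adjusted p = 0.0327), a call that was lost without any 1 of the 7 libraries other than cKO TAC 2.

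Ak3 (ENSMUSG00000024782.7, chromosome 19, 29020833 to 29047961) encodes the GTP-AMP phosphotransferase of the mitochondrial matrix. It lay between 137 and 176 CPM in the 8 libraries, and the groups overlapped in all 4 comparisons. The floxed TAC difference was log2 -0.01 ± 0.13 (limma adjusted p = 0.973), with a 95% interval from -0.31 to 0.29. Its transcript shares 20.1% of its 50-base words with the genes Cdc37l1 and 1700018L02Rik, which overlap it on the other strand.

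Slc25a4 (ENSMUSG00000031633.4, chromosome 8, 46206797 to 46211284) encodes the heart and muscle ADP/ATP carrier, ANT1. It fell in floxed hearts from 5966 and 6205 CPM to 4008 and 3166 CPM. The cKO libraries had 6861 and 6570 CPM after sham and 6089 and 5231 CPM after TAC, lower than their sham pair without overlap. The floxed difference was log2 -0.77 ± 0.17 (limma adjusted p = 0.00455), and without the 3 libraries with atrial transcripts it was log2 -0.74 and missed the threshold (adjusted p = 0.0660). The cKO difference was log2 -0.25 ± 0.17 (limma adjusted p = 0.4995, 95% interval -0.62 to 0.12). The difference between both responses, log2 0.52 ± 0.23, did not pass by limma (adjusted p = 0.161) and passed by DESeq2 (adjusted p = 0.0298).

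Slc25a5 (ENSMUSG00000016319.3, chromosome X, 36795651 to 36798807) encodes ANT2, the ADP/ATP carrier of growing and non-muscle cells. Floxed sham libraries had 323 and 345 CPM and floxed TAC libraries 498 and 452 CPM, which did not overlap. The cKO sham libraries were far apart, at 457 and 297 CPM, and cKO TAC libraries had 390 and 427 CPM. The lower of these sham values belongs to the library with Xist reads, and the cKO difference was log2 0.15 with it (limma adjusted p = 0.751) and log2 -0.16 without it. The floxed difference of log2 0.51 ± 0.18 was just past the threshold (limma adjusted p = 0.0425), and it missed it under RLE scaling (log2 0.36, adjusted p = 0.151), in DESeq2, in edgeR and without any 1 of the 4 floxed libraries (adjusted p between 0.0878 and 0.188). The gene shares 46.6% of its 50-base words with transcripts of other genes, among them the pseudogene Slc25a5-ps, so its level can depend on how reads with several matches were counted, which the sources used here do not state.

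Slc25a3 (ENSMUSG00000061904.12, chromosome 10, 91116574 to 91124059) encodes the phosphate carrier, which supplies the ATP synthase. In floxed hearts it fell from 1524 and 1641 CPM to 1068 and 896 CPM. The cKO sham libraries had 1634 and 1627 CPM, and the cKO TAC libraries 1383 and 1326 CPM. Floxed TAC libraries were lowest and cKO TAC libraries lay between them and the sham libraries. The differences were log2 -0.69 ± 0.12 in floxed (limma adjusted p = 0.00167) and log2 -0.27 ± 0.12 in cKO hearts (limma adjusted p = 0.322). The difference between both responses was log2 0.42 ± 0.17 and did not pass by limma (adjusted p = 0.130), whereas by DESeq2 it passed at log2 0.55 (adjusted p = 0.0399).

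In cKO hearts the 9 genes had a median TAC difference of log2 -0.02, against 0.02 over all genes, and 2.53% of all genes passed there, 2.09% higher and 0.442% lower. Without overlap, 3 of the 9 were lower after TAC (Ak1, Slc25a4 and Slc25a3) and 2 higher (Ckb and Slc6a8), where 19.9% of all genes were lower and 23% higher in this way. The same counts in floxed hearts were 5 lower and 3 higher, against 28.9% and 46.7% of all genes. At an unadjusted p under 0.05, 2142 of 13120 genes passed in cKO hearts. None of the 9 was among them, and edgeR and DESeq2 on recovered reads also called 0 of the 9 there.

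**Figure D2:**
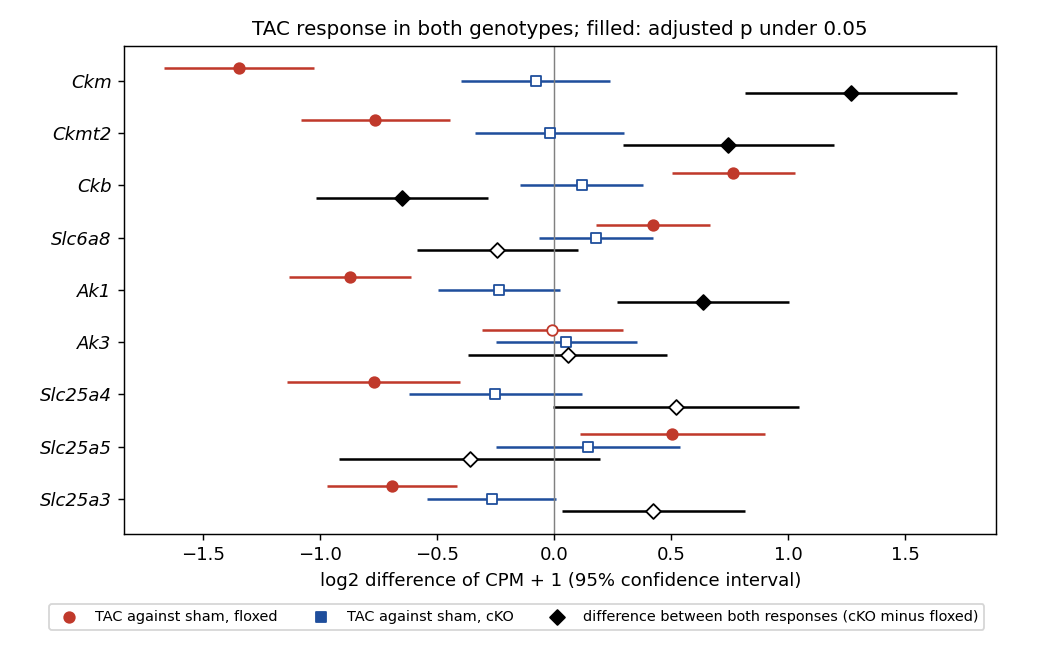
log2 difference of TAC against sham in floxed and in cKO hearts, and the difference between both responses, for each of the 9 genes with its 95% confidence interval, filled where the adjusted p was under 0.05. For Ckm the floxed interval lies from -1.67 to -1.03 and the cKO interval from -0.40 to 0.24, whereas those of Ak3 all include 0.

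With the threshold applied to the difference between both responses, 4 of the 9 genes passed. Ckm, Ckmt2 and Ak1 fell less in cKO hearts and Ckb rose less, where 14.1% of all genes tested passed, 4.93% with a positive and 9.18% with a negative difference. This count was 1 in 7 of the 8 fits that leave out a library, the exception being the fit without cKO TAC 2. Ckm was the gene that kept its call in each of those 8, and the count was also 1 without the 3 libraries with atrial transcripts. The median of this difference over the 9 genes was log2 0.42, against -0.13 over all genes. Calls over all genes were 647 positive and 1204 negative, or 846 and 917 under RLE scaling, where 3 of the 9 genes passed.

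Under TAC, 5 of the 9 genes were higher in cKO than in floxed hearts and 0 lower, where 8.39% of all genes were higher and 16.5% lower. This comparison shares the floxed TAC libraries with the floxed TAC response, so both move together by construction. Over all genes 1101 were higher and 2162 lower, or 1421 and 1752 under RLE scaling. Mean Ckm was 1066 ± 89.4 CPM in floxed TAC and 2610 ± 429 CPM in cKO TAC hearts (SD, n = 2), a log2 difference of 1.28 ± 0.14 (limma adjusted p = 0.000968). Ckmt2 was higher by log2 0.85 ± 0.14 (limma adjusted p = 0.00374) and Ak1 by log2 0.61 ± 0.12 (limma adjusted p = 0.00611). The carriers Slc25a4 (log2 0.66, limma adjusted p = 0.0183) and Slc25a3 (log2 0.47, limma adjusted p = 0.0225) passed as well, but both missed the threshold without floxed TAC 2, without cKO TAC 1, without the 3 libraries with atrial transcripts and when only the TAC libraries were fitted, which leaves 3 genes. Ckb was lower by log2 -0.34 ± 0.12 without passing (limma adjusted p = 0.0578), and Slc25a5, Slc6a8 and Ak3 had adjusted p between 0.409 and 0.615. Without overlap the same 5 genes were higher and 2 lower (Ckb and Slc25a5), where 23.6% of all genes were higher and 40.2% lower.

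In sham hearts 0 of the 9 genes passed between genotypes by limma, edgeR or DESeq2, where 0.0534% of all genes passed by limma (0.0457% higher and 0.00762% lower) and 1013 genes had an unadjusted p under 0.05. Ckb was the one of the 9 among them, at log2 0.31 ± 0.12 (limma unadjusted p = 0.0259, adjusted p = 0.599). Its level was 69.5 ± 1.04 CPM in cKO and 56.1 ± 4.32 CPM in floxed sham hearts (SD, n = 2). Ckm differed by log2 0.02, with a 95% interval from -0.30 to 0.34. No member was lower in cKO sham hearts without overlap, and 5 were higher (Ckm, Ckmt2, Ckb, Slc6a8 and Slc25a4), where 17.1% of all genes were lower and 24.9% higher in this way.

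Ratios within a library hardly depend on scaling between libraries, and they show both isoform pairs at once. Per 100 CPM of Ckm, the muscle isoform, there were 1.96 and 2.19 CPM of Ckb in floxed sham hearts and 9.48 and 8.61 CPM in floxed TAC hearts. These ratios are not set per length, so only their differences between libraries are read. In cKO hearts the ratio was 2.55 and 2.53 after sham and 2.41 and 3.52 after TAC, so that cKO TAC libraries fell on both sides of their sham pair and well under floxed TAC. Per 100 CPM of Slc25a4 there were 5.41 and 5.56 CPM of Slc25a5 in floxed sham and 12.4 and 14.3 CPM in floxed TAC hearts. The cKO libraries had 6.66 and 4.52 after sham and 6.40 and 8.16 after TAC, again overlapping and below floxed TAC. On the log2 scale, from log2(CPM + 1) values, the Ckb to Ckm ratio differed between TAC and sham by 2.12 in floxed and 0.20 in cKO hearts, and the Slc25a5 to Slc25a4 ratio by 1.28 and 0.40. Over all 8 libraries, TAC against sham gave log2 1.16 for the first ratio (exact permutation test of 4 against 4 libraries, two-sided p = 0.0857, adjusted over both ratios 0.0857) and 0.84 for the second (p = 0.0571, adjusted 0.0857). Labels were permuted over both genotypes together, so each pooled value describes neither genotype alone. The smallest p that such a test can give is 0.0286, and within a genotype, with 2 against 2, it is 0.333.

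**Figure D3:**
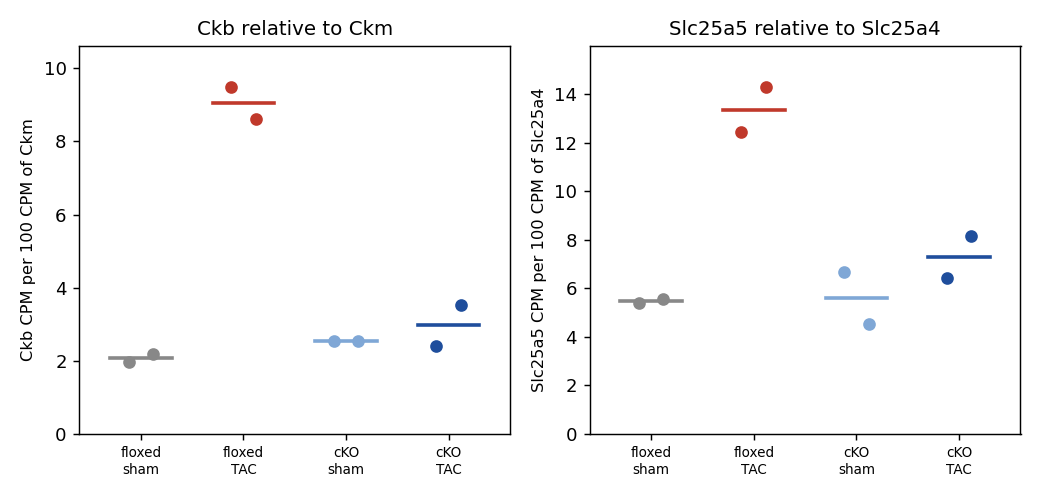
Ckb CPM per 100 CPM of Ckm (left) and Slc25a5 CPM per 100 CPM of Slc25a4 (right) in each library, with a short line marking each group's mean and axes from 0. The floxed TAC libraries stand highest in both, at 8.61 and 9.48 and at 12.4 and 14.3, while cKO TAC libraries reach 3.52 and 8.16.

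Levels of different genes can be set side by side only per length, here CPM per kb of annotated exon. In floxed sham hearts the order was Slc25a4 at 3161 ± 88.0, Ckmt2 at 1499 ± 9.92, Ckm at 988 ± 1.99, Slc25a3 at 813 ± 42.5, Ak1 at 306 ± 0.970, Slc25a5 at 269 ± 12.9, Ak3 at 53.6 ± 1.51, Slc6a8 at 53.5 ± 2.43 and Ckb at 38.1 ± 2.93 CPM per kb (SD, n = 2). Ak3 and Slc6a8 did not differ beyond their spread. This order holds for all annotated exons together. Several of these genes also have shorter coding transcripts, down to 1235 bases for Ckm, 359 for Ak1, 504 for Ak3, 537 for Slc6a8 and 1341 for Slc25a3, and which of them the reads come from is unknown. Over 1235 bases in place of 2742 Ckm would stand at 2195 CPM per kb in floxed sham hearts, above Ckmt2, and at 863 CPM per kb in floxed TAC hearts. Over all exons, in floxed TAC hearts Ckm (389 ± 32.6 CPM per kb) and Slc25a5 (383 ± 26.3) did not differ beyond their spread, and Ckb (65.3 ± 1.02) stood above Ak3 (53.4 ± 3.66). Neither holds over the shortest coding transcripts of Ckm and Ak3, which raise their values per kb. In cKO TAC hearts Ckm was again far above Slc25a5, at 952 ± 156 against 329 ± 21.0 CPM per kb, and Ckb (51.4 ± 5.16) and Ak3 (57.5 ± 4.95) overlapped.

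Cell type markers moved in the same comparison, and their part in these results was not tested. In bulk tissue, fewer cells of a type and less RNA per cell cannot be told apart. The summed level of the 10 cardiomyocyte markers was 83754 to 93173 CPM in floxed sham and 61274 to 63966 CPM in floxed TAC hearts, 0.708 times the sham mean, with 6 markers lower and 1 higher by limma. In cKO hearts it was 78174 to 82006 CPM after sham and 75384 to 87359 CPM after TAC. The median TAC difference of these markers was log2 -0.75 in floxed and -0.03 in cKO hearts, beside -0.69 and -0.02 for the 9 genes. Under TAC, 7 of the 10 were higher in cKO than in floxed hearts (median log2 0.68), where 8.39% of all genes were. For the difference between both responses 5 of the 10 passed, all positive (median log2 0.83), where 4.93% of all genes did. Of the 9 genes 4 passed that test (median log2 0.42). The most abundant markers of this list moved apart in floxed hearts: cardiac actin Actc1 rose by log2 0.93 and the fast myosin gene Myh6 fell by 1.44 on the log2 scale. The 8 macrophage markers, all higher in floxed TAC hearts (the most abundant being Lyz2 at log2 3.22 and C1qa at 1.86, with a list median of 2.52), summed to 313 to 325 CPM after sham and 1745 to 2033 CPM after TAC. In cKO hearts they summed to 266 to 348 CPM after sham and 587 to 832 CPM after TAC. The 7 fibroblast markers, 5 of them higher in floxed TAC hearts with Col3a1 (log2 3.81) and Col1a1 (log2 4.33) the most abundant, summed to 1330 to 1414 CPM after sham and 7829 to 10596 CPM after TAC. The 2 collagens made up most of the rise in this sum. The list median was log2 0.81, Pdgfra rose by log2 0.33, and Dcn (log2 0.21) and Dpt (log2 0.14) did not pass. In cKO hearts the sum was 1435 to 1626 CPM after sham and 2579 to 4144 CPM after TAC. Endothelial markers, 0 of 6 of which passed, summed to 1003 to 1074 CPM in floxed TAC and 1102 to 1103 CPM in floxed sham hearts. Skeletal muscle, which also makes much Ckm and Ak1, was represented by 5 listed markers that summed to 218 to 334 CPM in floxed sham, 112 to 139 CPM in floxed TAC, 173 to 217 CPM in cKO sham and 200 to 310 CPM in cKO TAC hearts, with 3 lower and 1 higher in floxed hearts. The myosin genes Myh1 and Myh4 made up most of each sum, and Tnnt3, Mylpf and Atp2a1 each stayed at or below 4.09 CPM. Myh1 ranged from 40.2 to 136 CPM, Myh4 from 66.8 to 195 CPM and the cardiomyocyte marker Myh6 from 8565 to 31525 CPM. All 3 were lowest in the floxed TAC libraries and highest in floxed sham 1 and cKO TAC 1. Whether the Myh1 and Myh4 reads came from skeletal muscle was not tested. No listed marker of these lists was at 0 in all libraries. Smooth muscle and pericyte markers (3 higher, 1 lower of 6) summed to 657 to 669 CPM in floxed sham and 933 to 965 CPM in floxed TAC hearts, and Schwann cell markers (1 higher of 3) to 15.4 to 16.5 CPM and 22.3 to 23.3 CPM.

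The genes whose profile over the 8 libraries came closest to a member were found by the root mean square distance of centred log2 values among 8714 other genes with a mean of at least 10 CPM. For Ckm they were Lrrc14b (0.093), the oxygen-binding muscle protein gene Mb (0.11) and Actr3b (0.11). Mb stood at 19243 and 17506 CPM in floxed sham, 7181 and 8995 CPM in floxed TAC and 17506 and 15930 CPM in cKO TAC hearts. Ckmt2 was closest to Pdhb (0.069), a subunit of pyruvate dehydrogenase, to the complex I subunit gene Ndufs8 (0.077) and to Atp5s (0.084). Ckb was closest to Eps8, Me2 and Mtmr2 (0.058 to 0.064) and Slc25a5 to Gramd3, Ppp1cc and Fam49a (0.051 to 0.082). These distances are a description over libraries of 4 groups.

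Other genes of energy transfer moved in both directions. Of a list of 39 genes 30 were tested, the rest being under the filter or without a row, and 14 were higher, 6 lower and 10 not past in floxed TAC hearts, with a median of log2 0.37, where 27.9% of all genes were higher and 14.5% lower, with a median of 0.14. None of the 30 passed in cKO hearts, where 2.53% of all genes did. Between genotypes under TAC 4 were higher and 6 lower, where 8.39% and 16.5% of all genes were. Gatm, the first enzyme of creatine synthesis, rose from 5.32 and 8.16 CPM to 19.5 and 33.5 CPM in floxed hearts (log2 1.80 ± 0.28, limma adjusted p = 0.00079) and was at 6.79 and 6.68 CPM in cKO TAC hearts, a response that differed between genotypes (log2 -1.50, limma adjusted p = 0.0360, lost in 9 of 17 alternative fits). The second enzyme, Gamt, did not pass (log2 0.54, limma adjusted p = 0.0786). Ckmt1, the other mitochondrial creatine kinase, stayed between 0.165 and 1.58 CPM and was not tested.

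Nme1, a nucleoside diphosphate kinase that passes phosphate from ATP to other nucleotides, rose from 18.2 and 17.6 CPM to 76.7 and 71.3 CPM in floxed hearts (log2 1.99 ± 0.16, limma adjusted p = 3.01e-05). In cKO TAC hearts it was at 29.2 and 24.9 CPM, and the responses differed (log2 -1.79 ± 0.23, limma adjusted p = 0.00454). The neighbouring and closely related Nme2 had 469 and 485 CPM in floxed sham and 491 and 459 CPM in floxed TAC hearts and did not pass (log2 -0.01). In a family this similar, reads can be split between copies.

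Among 5 tested genes of AMP removal 4 were higher and 1 lower in floxed TAC hearts. The AMP deaminase gene Ampd2 rose by log2 1.20 ± 0.23 (limma adjusted p = 0.00271) and the surface nucleotidase gene Nt5e by log2 1.16 ± 0.34 (limma adjusted p = 0.0204, lost without any 1 of the 4 floxed libraries), whereas the heart and muscle AMP nucleotidase gene Nt5c1a fell by 0.99 on the log2 scale (limma adjusted p = 0.00146). All 3 tested ATP-Mg/phosphate carriers were higher, led by Slc25a24 at log2 1.34 ± 0.22 (limma adjusted p = 0.000973). The responses of Ampd2 (log2 -1.43), Slc25a24 (log2 -1.28) and Nt5c1a (log2 1.00) differed between genotypes by limma (adjusted p between 0.0228 and 0.0277). Each of these 3 calls was lost without any 1 of the floxed libraries or without cKO TAC 1, with adjusted p up to 0.119.

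The outer membrane channels Vdac1 (log2 -0.69, limma adjusted p = 0.000829) and Vdac3 (log2 -0.60, limma adjusted p = 0.00243) fell in floxed TAC hearts and Vdac2 did not pass. Of 6 subunits of AMP-activated kinase, an enzyme that senses AMP, 3 were lower and 2 higher. Prkab1 fell furthest, by 1.08 on the log2 scale (limma adjusted p = 0.000925). The kinase Ak4 of the mitochondrial matrix did not pass in floxed hearts (log2 0.14) and passed between genotypes under TAC, at log2 -0.55 for cKO against floxed (limma adjusted p = 0.0300). Cmpk1, a kinase of CMP and UMP, rose by log2 0.67 in floxed hearts (limma adjusted p = 0.0206, up to 0.137 without floxed TAC 1 or either floxed sham library). It also passed between genotypes under TAC (log2 -0.68), as did Vdac1, Vdac3 and Prkab1 (log2 0.42, 0.37 and 0.58). These 5 calls between genotypes were lost in 4 to 9 of 18 alternative fits, all 5 of them without floxed TAC 2. As a comparison, all 15 ATP synthase genes were lower in floxed TAC hearts, with a median of log2 -0.64, where 14.5% of all genes were lower. In cKO hearts 0 of 15 passed (median log2 -0.30), where 2.53% of all genes did. Beside that floxed median Ckm stood lower and Slc25a4, Ckmt2 and Slc25a3 close by, with log2 -0.69 to -0.77. Under TAC 13 of the 15 were higher in cKO than in floxed hearts (median log2 0.58), where 8.39% of all genes were. No ATP synthase gene passed the test of the difference between both responses (median log2 0.39, 0 of 15 by limma), where 14.1% of all genes did.

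**Figure D4:**
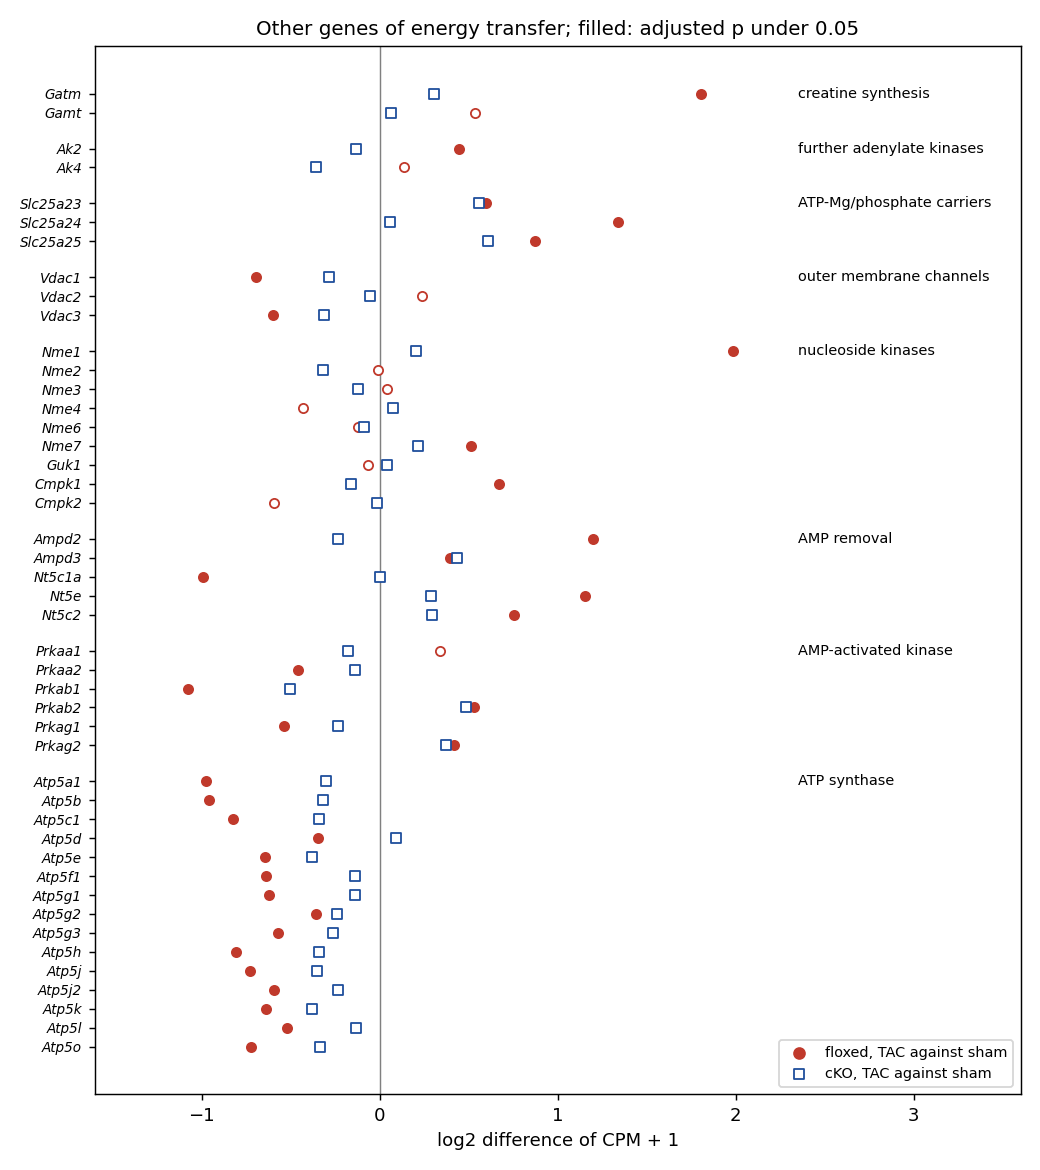
log2 difference of TAC against sham in floxed (circles) and cKO hearts (squares) for 30 tested genes of energy transfer and 15 ATP synthase genes, grouped by role and filled where the adjusted p was under 0.05. Nme1 and Gatm lie farthest to the right in floxed hearts at log2 1.99 and 1.80, and no square is filled.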

How the data were processed

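Left ventricular RNA was sequenced in 8 libraries. The deposited values are CPM, made by the authors from reads assigned to genes. Per the submitters' processing notes, Bowtie2 2.2.6, HTSeq and DESeq2 were used with mm10, and the annotation and counting settings are not stated there. Every CPM value was a whole number of reads within 0.02 reads (100% of values), so reads were recovered. A count of 0 allows up to 3 reads, or 0.137 to 0.291 CPM, which covers counting error only.

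The plan named edgeR for counts and limma for CPM. Here limma 3.58.1 (R 4.3.3, trended variance) was fitted to log2(CPM + 1) over the 13120 genes that reached 1 CPM in 2 or more libraries, with 1 coefficient per group. It was also run on simulated data with few genes changed and a fixed spread, where only the direction of larger changes was required. That run says nothing on the accuracy of calls in these data, where 42.4% of genes passed in floxed hearts. Ratios were compared by exact permutation. Alternatives were another pseudocount, no filter, RLE and TMM scaling, limma-voom, edgeR 4.0.16 and DESeq2 1.42.0 on recovered reads, a replicate block, leaving out libraries and fitting only the groups compared. Gene lengths and positions came from GENCODE M21.

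The members and lists were chosen with earlier results of these data known. All 9 members are named. From the pathway list the text names the 6 genes with the largest floxed differences among those that passed and any that passed in another comparison. From the cardiomyocyte, macrophage and fibroblast lists it names the 2 most abundant genes. From the skeletal muscle list it names every listed gene, added after their values were seen. The 3 nearest profiles are named for 4 members. Gamt, Ckmt1, Nme2, Vdac2, Pdgfra, Dcn and Dpt were added after their values were seen, as were Myl7, Xist and Ddx3y, which mark libraries that stand apart. Of the atrial markers 1 of 4 was higher in floxed TAC hearts, of the erythroid markers 1 of 4 was listed and did not pass, and of the sex-linked markers 0 of 4 passed.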

Additional observations from a re-analysis of the deposited data

Results flagged for a closer look

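The TAC response differed between cKO and floxed hearts, by the test of that difference in limma, for 4 of the 9 phosphotransfer genes and for 5 of the 30 further genes of energy transfer, where 14.1% of all genes tested passed. The count among the 30 is close to that share. The cKO response minus the floxed response was log2 1.27 for Ckm, 0.75 for Ckmt2 and 0.64 for Ak1, whose levels fell in floxed hearts, and log2 -0.65 for Ckb, which rose there. Among the further genes it was log2 -1.79 for Nme1, -1.50 for Gatm, -1.43 for Ampd2 and -1.28 for Slc25a24, all higher in floxed TAC hearts, and log2 1.00 for Nt5c1a, which was lower. Ckm and Nme1 kept this call in all 17 alternatives, with a highest adjusted p = 0.0493 for Ckm. The call was lost in 8 of 17 alternatives for Ckmt2 and for Ak1, in 11 for Ckb, in 9 for Gatm, in 7 for Nt5c1a and in 6 each for Ampd2 and Slc25a24.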

How the results depend on the processing

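With 2 libraries a group, calls of differences between responses, other than those of Ckm and Nme1, were lost without 1 or more single libraries. In floxed hearts Ckm, Ckmt2, Ckb, Ak1 and Slc25a3 kept direction and call in all 19 alternatives, while the calls of Slc25a5, Slc6a8 and Slc25a4 were lost in 9, 7 and 1. No paired libraries are described, and a shared replicate number is all that links groups: replicate 1 minus 2 correlated between groups at -0.106 to 0.081. The replicate block left the counts at 8 in floxed hearts, 0 in cKO hearts, 0 between sham groups, 5 between TAC groups and 4 for the difference between responses. The log2 ratio differences of 1.16 and 0.84 cannot change under this block, which only limits the assignments permuted. Crossing the numbers in the floxed groups, chosen after seeing the data, gave 7 in floxed hearts. Between TAC groups the count was 3 without the 3 libraries with atrial transcripts (chosen with earlier results known), 3 with only those groups fitted and 3 to 6 when a library was left out. For the difference between responses it was 1 without the atrial libraries and 1 to 4 when a library was left out. Fewer libraries were fitted in each of these.

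Signs turned among differences that passed in no setting, and the cause was not tested. Without the atrial libraries, cKO TAC against sham was log2 0.081 for Ckm, 0.071 for Ckmt2, -0.038 for Ak3 and -0.23 for Slc25a5, the sham genotype difference of Ak1 was 0.061, and the difference between responses of Ak3 was -0.0026. Ckm between sham groups was log2 -0.0084 under RLE scaling, -0.013 under TMM and edgeR and -0.0079 in DESeq2. With 1 library left out, cKO TAC against sham ranged from -0.25 to 0.089 for Ckm, -0.19 to 0.15 for Ckmt2, -0.13 to 0.23 for Ak3 and -0.16 to 0.45 for Slc25a5. Between sham groups it ranged from -0.11 to 0.058 for Ak1, -0.13 to 0.22 for Ak3, -0.17 to 0.45 for Slc25a5 and -0.0093 to 0.097 for Slc25a3. Ak3 ranged from -0.077 to 0.063 in floxed hearts and from -0.12 to 0.24 for the difference between responses.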
